A study of Mus musculus with 6 samples.

Results

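The clustered, replication-dependent histone genes were taken as all rows of the deposited gene count table whose symbol begins with Hist1h, Hist2h, Hist3h or Hist4h. There were 69 such genes among 26586 in the table: 6 for the linker histone H1, 19 for H2A, 19 for H2B, 12 for H3 and 13 for H4. GENCODE M21 annotates 67 of them as protein-coding and 2, Hist1h2al and Hist3h2bb-ps, as pseudogenes. On chromosome 13 of GRCm38 lie the 55 genes named Hist1, 54 of them in the Hist1 cluster and Hist1h2al apart from it. The other clusters are smaller: 10 genes lie on chromosome 3 (Hist2), 3 on chromosome 11 (Hist3) and 1 on chromosome 6 (Hist4).

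The RNA came from endometrial epithelial isolates of mouse uterus. All 3 mice carried Axin2rtTA with tetOH2BJGFP, an arrangement in which doxycycline switches on a green fluorescent H2B fusion where Axin2 is transcribed. Ovariectomy was done at 4 weeks, doxycycline followed a rest of 2 weeks, and uteri were taken 4 days after it, with 6 weeks given as the age. Green cells were sorted as Axin2+ and non-green cells as Axin2-, giving 3 libraries of each fraction numbered by mouse. The labels number libraries by mouse but also mention pooling of cells, so if material was pooled the p-values below measure only the spread between libraries. Both fractions therefore share the genotype, the ovariectomy and the doxycycline, and they differ in the sort gate. The reporter is itself an H2B fusion, and whether its reads entered any H2B row was not tested.

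Replication-dependent histone genes supply the bulk of the histones that package newly copied DNA. Most have no introns, and their mRNAs characteristically end in a short stem-loop in place of a poly(A) tail. Stem-loop binding protein, encoded by Slbp, holds that structure during processing, export, translation and decay, and the U7 small nuclear ribonucleoprotein directs the cut just past it. Libraries made from ribosome-depleted total RNA, as here, do not need a poly(A) tail to capture such transcripts. The core histones H2A, H2B, H3 and H4 form the nucleosome, and H1 binds the linker DNA between nucleosomes.

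The stem-loop was searched for in the annotated GENCODE transcripts as a perfect stem of 6 bases beginning GG, closed by a loop of 4 bases beginning TT, and was present in 44 of the 69 genes, in 6 spellings of 16 bases. Its spelling differs between the classes, so 8 examples are shown, as DNA read 5′ to 3′ along the transcript, with 5 flanking bases on each side and the 16-base stem-loop in capitals.
Hist1h1d: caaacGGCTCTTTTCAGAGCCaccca
Hist1h3d: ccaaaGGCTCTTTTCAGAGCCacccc
Hist1h3c: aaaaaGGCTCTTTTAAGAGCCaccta
Hist2h2ac: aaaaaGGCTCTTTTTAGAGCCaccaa
Hist1h4b: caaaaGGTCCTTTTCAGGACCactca
Hist1h4d: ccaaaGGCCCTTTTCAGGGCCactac
Hist2h4: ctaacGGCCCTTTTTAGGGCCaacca
Hist4h4: acaaaGGCCCTTTTCAGGGCCcacaa
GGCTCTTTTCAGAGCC was found in 26 genes of the H1, H2A, H2B and H3 classes and in no H4 gene. A relative with A in the loop, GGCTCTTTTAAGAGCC, was found in 6 genes: 1 H1, 2 H2B and 3 H3. Hist2h2ac was the 1 gene with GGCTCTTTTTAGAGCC. The H4 genes carried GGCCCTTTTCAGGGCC in 7 cases, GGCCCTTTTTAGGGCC in 2 and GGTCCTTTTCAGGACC in 2. For the other 25 genes no stem-loop of these forms lay within the annotated transcript, which says nothing about sequence past the annotated end.

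Summed over all 69 genes, histone transcripts were higher in the fraction labelled Axin2+. Their summed level, in CPM (counts scaled to the TMM-adjusted library size), was 719, 757 and 742 in the Axin2- libraries of mice 1, 2 and 3, and 952, 1245 and 1232 in the Axin2+ libraries. All 3 Axin2+ libraries lay above all 3 Axin2- libraries, the means being 739 ± 19.1 and 1143 ± 165 (SD, n = 3 each), a ratio of 1.55. As a share of all assigned read pairs, histone counts made up 0.0664 to 0.0726% of the Axin2- libraries and 0.0997 to 0.133% of the Axin2+ libraries. In bulk RNA of sorted cells, more cells carrying these transcripts and more transcript in each cell cannot be told apart.

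Of the 63 histone genes with enough counts to be tested, 21 passed the test as higher and 2 as lower in Axin2+ (edgeR quasi-likelihood test over 16896 genes, Benjamini-Hochberg adjusted p under 0.05). Of all genes tested, 14.5% were called higher and 12.8% lower, against 33.3% of the histone genes called higher. Between the fractions, 27 of the 63 lay above without overlap and 4 below without overlap, where 23.9% and 23.2% of all genes did. The median log2 fold change of the 63 was 0.84, against -0.0077 for all genes tested, and 49 lay above 0 and 14 below. Within mice, 38 of the 63 were higher in the Axin2+ library in 3 of 3 mice and 9 in 0 of 3. This count was not made over all genes tested, so it has no general share beside it. The 27 genes above without overlap include all 21 called higher. They are higher in 3 of 3 under any pairing of libraries, so the pairing adds nothing for them. The 6 genes not tested, Hist1h2aa, Hist1h2ao, Hist1h2ap, Hist1h2ba, Hist1h2bq and Hist1h2br, reached at most 3 counts in any library. Leaving out the Axin2+ library of mouse 2 left 14 of the 21 calls, and leaving out that of mouse 3 left 16. With mouse as a block 19 remained.

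**Figure D1:**
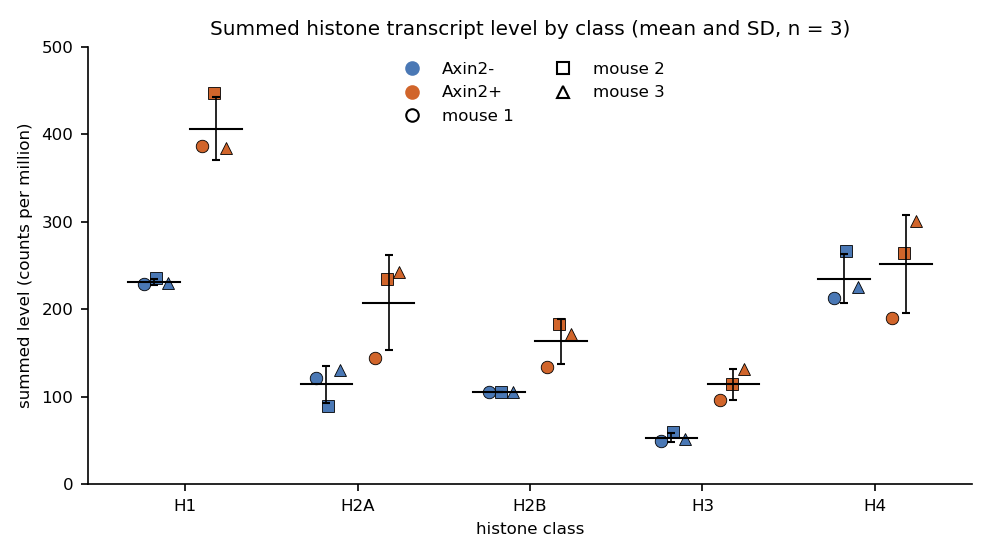
Summed level of the histone genes of each class (vertical axis, CPM) in every library, with Axin2- libraries in blue, Axin2+ in orange, the marker shape giving the mouse, and the line and bar giving the mean and SD of 3 libraries. The H1, H2B and H3 sums of the 2 fractions are well apart, H2A is separated by a smaller margin, and the H4 sums overlap.

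Depth was even, at 49714402 to 59597315 assigned read pairs per library, 29.26 to 38.86% of all pairs. Axin2 mRNA itself had 369, 357 and 356 CPM in Axin2- against 165, 243 and 299 CPM in Axin2+, so it was not higher in the fraction named for it, with a log2 fold change of -0.61 (SE 0.21, adjusted p = 0.071). Fractions are therefore named here by their sort label. Other cell types moved with the fractions. All 14 epithelial markers were higher in Axin2+ (summed level 239 to 342 against 2680 to 3834 CPM), as were all 9 macrophage markers (48.0 to 309 against 679 to 3909). All 10 smooth muscle markers were lower (3369 to 8183 against 414 to 667), as were 9 of 10 stromal markers. Endothelial markers gave 4 of 7 higher (173 to 218 against 196 to 281), and 4 of 6 T and NK cell markers were lower (16.8 to 35.8 against 3.40 to 6.40). The part of these cell types in the histone differences was not tested.

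H1 transcripts, the linker histones, summed to 229, 235 and 230 CPM in the Axin2- libraries and to 387, 448 and 384 in the Axin2+ libraries, with no overlap. All 6 H1 genes were tested, and 3 were called higher and none lower. Hist1h1d (chr13:23553262-23560686, plus strand, ENSMUSG00000052565) rose the most of the class. It stood at 19.2, 14.2 and 21.4 CPM in Axin2- and at 52.3, 69.2 and 67.6 CPM in Axin2+. Every Axin2+ library was above every Axin2- library, and the log2 fold change was 1.78 (SE 0.20, adjusted p = 0.00111).

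Hist1h1c (chr13:23738808-23740367, plus strand) had the highest mean count of the 69 genes. Its levels of 114, 120 and 119 CPM in Axin2- compared with 205, 222 and 160 in Axin2+, a log2 fold change of 0.73 (SE 0.14, adjusted p = 0.00999). The Axin2- libraries were within a few CPM of each other, while the Axin2+ library of mouse 3 was nearest to them. Hist1h1e (chr13:23620629-23622558, minus strand) went from 69.0, 72.7 and 60.0 CPM to 101, 118 and 112 (log2 fold change 0.72, SE 0.12, adjusted p = 0.00591). These 3 genes kept their call under all 13 alternative settings. Hist1h1a and Hist1h1b, the other somatic linkers, had log2 fold changes of 0.34 and 0.52 and were not called. Hist1h1t, the testis linker histone, was near the detection limit at 0.739, 0.297 and 1.21 CPM in Axin2- and 0.190, 0.170 and 0.800 CPM in Axin2+ (log2 fold change -0.95, SE 0.87, adjusted p = 0.455).

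**Figure D2:**
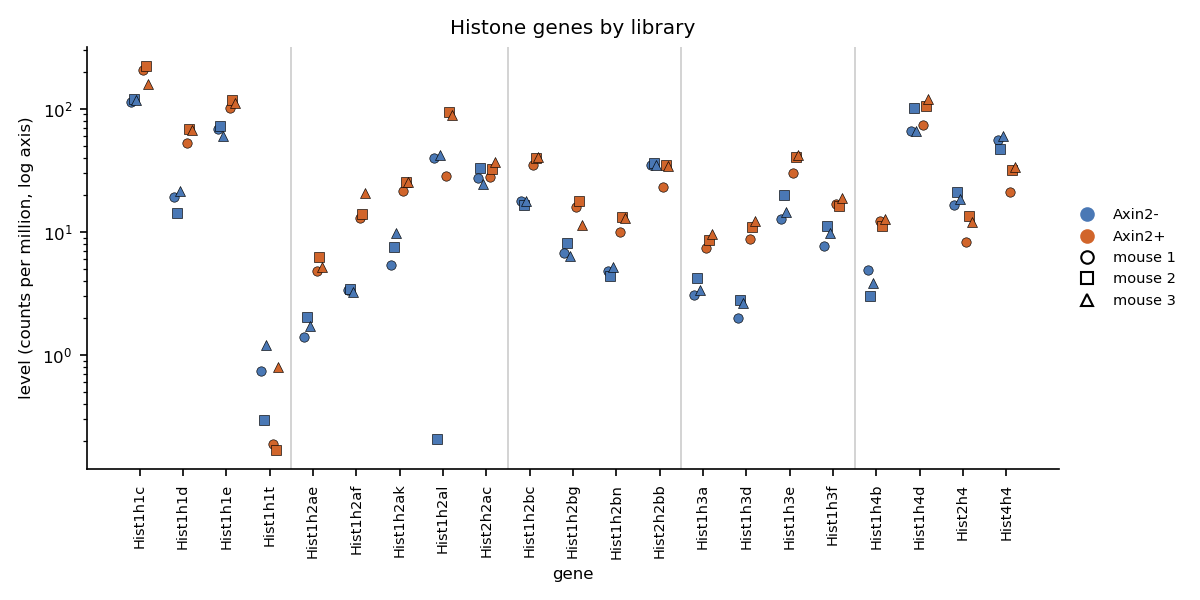
Level of the named histone genes (vertical axis, CPM, log axis) in each library, ordered by class and separated by grey lines, with colours for the fraction and shapes for the mouse. Hist1h1c and Hist1h1d show separated fractions, Hist2h2bb and Hist1h4d overlap, and Hist1h2al has 1 Axin2- library, mouse 2, at 0.210 CPM.

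H2A genes numbered 19, of which 16 were tested and 6 were higher; none was lower. The largest called rise was in Hist1h2af (chr13:23533906-23534304, plus strand), at 3.36, 3.44 and 3.25 CPM in Axin2- and 13.0, 14.0 and 20.8 CPM in Axin2+. The 3 Axin2- libraries were nearly equal and lay far below each Axin2+ library, with a log2 fold change of 2.25 (SE 0.25, adjusted p = 0.00108). Hist1h2ak (chr13:21753435-21753827, minus strand) was at 5.39, 7.50 and 9.72 CPM in Axin2- and 21.5, 25.4 and 25.7 CPM in Axin2+ (log2 fold change 1.68, SE 0.24, adjusted p = 0.00303). Hist1h2ae was at 1.40, 2.04 and 1.71 CPM and at 4.81, 6.21 and 5.21 CPM (log2 fold change 1.65, SE 0.31, adjusted p = 0.00837). Neither gene's fractions overlapped. The other H2A genes called higher were Hist1h2ab, Hist1h2ad and Hist1h2ac, with log2 fold changes of 2.04, 2.02 and 1.01. The calls of Hist1h2ab and Hist1h2ac were lost without the Axin2+ library of mouse 2, and that of Hist1h2ac also without the Axin2+ or the Axin2- library of mouse 3. The Hist1h2ad call, at 10 to 62 counts per library, was lost with mouse as a block (adjusted p = 0.0767), with no count filter and without any 1 of the 6 libraries.

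Hist2h2ac, from the chromosome 3 cluster, had similar levels in both fractions. It was at 27.4, 33.0 and 24.6 CPM in Axin2- and at 28.0, 32.5 and 37.3 CPM in Axin2+, ranges that overlapped in part (log2 fold change 0.20, SE 0.17, adjusted p = 0.417). Hist1h2al, the pseudogene at chr13:51202727-51203065, had the highest mean CPM of the class and a wide spread. It had 39.9, 0.210 and 42.4 CPM in Axin2- and 28.6, 95.0 and 89.7 CPM in Axin2+ (log2 fold change 1.37, SE 1.25, adjusted p = 0.456). Its 12 counts in the Axin2- library of mouse 2 stand beside 2052 and 2057 in the other Axin2- libraries. With Hist1h2al the H2A sums were 89.6 to 131 CPM against 145 to 243, and without it 81.9 to 89.4 against 116 to 153. The H2A sums of the fractions did not overlap with or without that pseudogene. Hist1h2aa, a germ-line H2A gene, had 1 count in all 6 libraries together.

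H2B transcripts summed to 105, 106 and 106 CPM in Axin2- and to 134, 183 and 172 CPM in Axin2+. Of 19 genes, 16 were tested, 5 were higher and none was lower. Hist1h2bc was the best separated, with 17.9, 16.6 and 17.9 CPM in Axin2- and 34.7, 39.6 and 40.4 CPM in Axin2+ (log2 fold change 1.13, SE 0.13, adjusted p = 0.0014). Hist1h2bn (chr13:21754123-21754503, plus strand) stood at 4.82, 4.42 and 5.19 CPM against 10.04, 13.2 and 13.0 CPM (log2 fold change 1.33, SE 0.22, adjusted p = 0.00497). For Hist1h2bg the values were 6.80, 8.11 and 6.42 CPM against 16.0, 17.9 and 11.3 CPM (log2 fold change 1.08, SE 0.23, adjusted p = 0.0145). Without the Axin2+ library of mouse 2 its call was lost. Hist1h2bb and Hist1h2bm were also called, at log2 fold changes of 1.37 and 1.20, and the Hist1h2bm call was lost with mouse as a block (adjusted p = 0.0682). Both calls were also lost without the Axin2- library of mouse 1 or 2 or the Axin2+ library of mouse 2 or 3.

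Hist2h2bb, an H2B gene of chromosome 3 with many counts, was at 35.2, 36.2 and 34.8 CPM in Axin2- and at 23.0, 34.9 and 34.4 CPM in Axin2+ (log2 fold change -0.20, SE 0.18, adjusted p = 0.45). Only the Axin2+ library of mouse 1 lay apart from the other 5. Hist1h2ba, the testis H2B gene, had 0, 2 and 0 counts in Axin2- and 0, 3 and 1 in Axin2+. Hist3h2bb-ps, a pseudogene picked out after its values were seen, had the most negative estimate of the 63, -3.24 (SE 1.08, adjusted p = 0.0616), at under 1 CPM in every library.

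H3 was the class with the largest ratio of summed levels, 2.15, from 48.9, 59.1 and 51.4 CPM in Axin2- to 96.4, 114 and 132 CPM in Axin2+. All 12 genes were tested, 6 were higher and none was lower. Hist1h3d (chr13:23575763-23577011, plus strand) had 2.00, 2.78 and 2.64 CPM in Axin2- and 8.80, 11.0 and 12.2 CPM in Axin2+ (log2 fold change 2.11, SE 0.26, adjusted p = 0.00176). Hist1h3e, with the most counts of the class, went from 12.6, 19.8 and 14.6 CPM to 30.0, 40.3 and 42.1 CPM (log2 fold change 1.26, SE 0.22, adjusted p = 0.00677). Hist1h3a was at 3.07, 4.21 and 3.36 CPM against 7.47, 8.53 and 9.71 CPM (log2 fold change 1.27, SE 0.25, adjusted p = 0.0107). All 3 had fractions that did not overlap, and their calls held under all 13 alternatives.

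Hist1h3f, second in counts within the class, changed less, from 7.68, 11.3 and 9.76 CPM to 16.9, 16.2 and 18.8 CPM (log2 fold change 0.85, SE 0.20, adjusted p = 0.0185). Its call was lost without the Axin2+ library of mouse 2 or that of mouse 3. The remaining calls, Hist1h3c and Hist1h3b, had the largest fold changes of all called genes, 2.46 (SE 0.52) and 2.27 (SE 0.47). Hist1h3c was also among the least counted, with 35 to 100 counts in Axin2- and 271 to 466 in Axin2+, and its call was lost without the Axin2- library of mouse 3.

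H4 was the class with the fewest higher calls. Its sums overlapped, at 213, 267 and 225 CPM in Axin2- and 190, 265 and 300.5 CPM in Axin2+. Of 13 genes tested 1 was higher and 2 were lower, beside 14.5% higher and 12.8% lower among all genes tested. The higher one, Hist1h4b (chr13:23757013-23757409, plus strand), was at 4.94, 3.01 and 3.85 CPM against 12.2, 11.1 and 12.7 CPM (log2 fold change 1.61, SE 0.25, adjusted p = 0.0043). Hist1h4d, with the most counts of the class, had 65.9, 102 and 66.6 CPM in Axin2- and 73.6, 105 and 121 CPM in Axin2+ (log2 fold change 0.36, SE 0.24, adjusted p = 0.307). Mouse 2 was the highest of the Axin2- libraries there and lay close to the Axin2+ library of the same mouse.

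Both genes called lower encode H4 from loci outside chromosome 13. Hist4h4 (chr6:136801553-136804415, minus strand) fell from 56.3, 47.3 and 59.9 CPM to 21.1, 32.0 and 33.9 CPM (log2 fold change -0.91, SE 0.20, adjusted p = 0.0169). Hist2h4 (chr3:96261682-96263311, minus strand) fell from 16.7, 21.1 and 18.7 CPM to 8.26, 13.6 and 12.0 CPM (log2 fold change -0.74, SE 0.22, adjusted p = 0.0459). In both, each Axin2+ library was below each Axin2- library. The Hist4h4 call was lost without the Axin2- library of mouse 1 (adjusted p = 0.0565) or mouse 3 (adjusted p = 0.0611), and Hist2h4 was called in 5 of 13 alternatives. GENCODE extends both transcripts far past the stem-loop, by 2445 bases in Hist4h4 and 1257 in Hist2h4. Such extension was also found in genes called higher, such as Hist1h1d, which runs 4884 bases past the stem-loop. Of 22 tested genes whose transcripts run over 100 bases past it, 9 were higher and 2 were lower. Of 20 tested genes whose transcripts end within 100 bases of it, 8 were higher and none was lower. Among all genes tested 14.5% were higher and 12.8% lower. The part of extension in these calls was not tested.

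**Figure D3:**
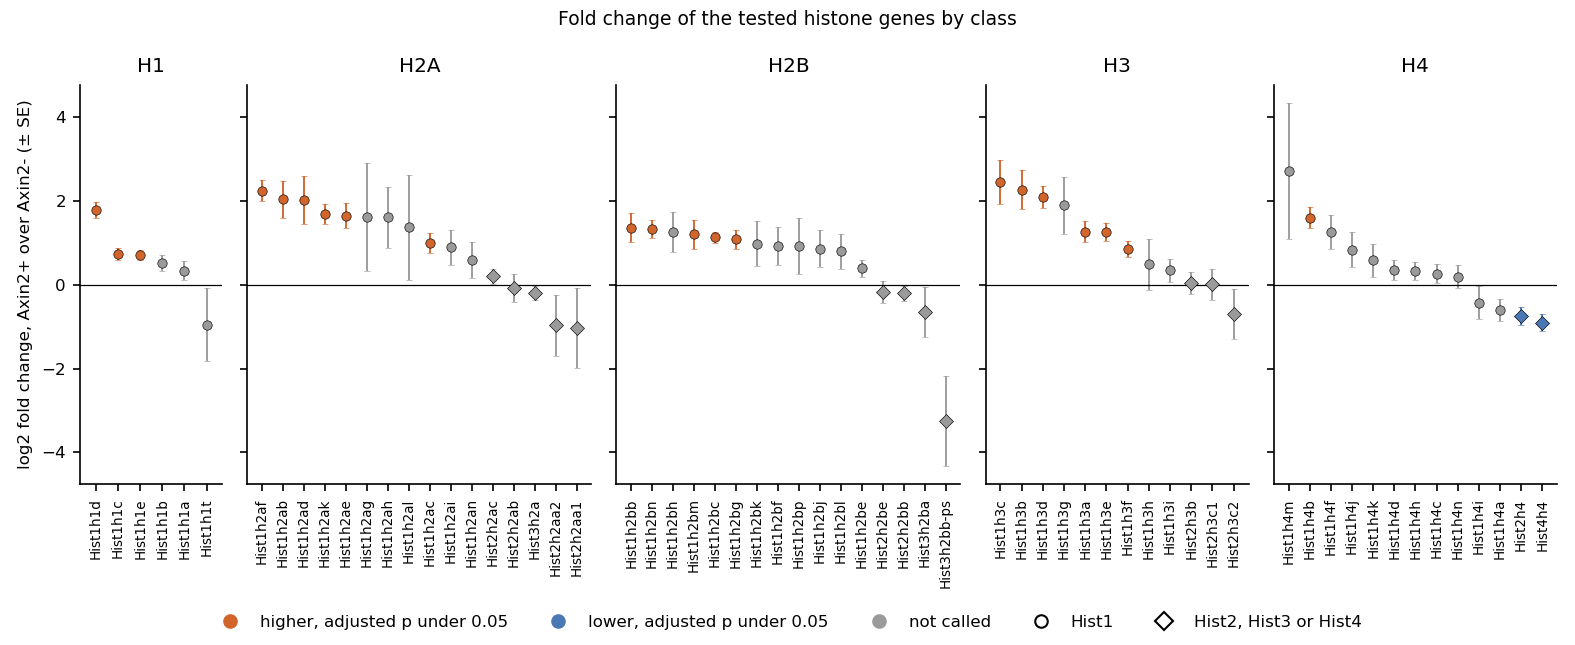
Log2 fold change of Axin2+ over Axin2- with its standard error (vertical axis) for the 63 tested histone genes, in 5 panels by class and sorted within each. Orange marks genes called higher, blue lower and grey not called, and circles mark Hist1 genes and diamonds Hist2 to Hist4. All orange points are circles, and both blue points are diamonds in the H4 panel.

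By genomic cluster, the 21 higher calls were all in Hist1 (Hist1h2al counted with it), where 49 of 55 genes were tested and 46 of the 49 had log2 fold changes above 0 (median 1.01). None of the 14 genes of Hist2, Hist3 and Hist4 was called higher, 2 were lower, and 11 of 14 had log2 fold changes below 0 (median -0.43). Higher calls were 42.9% of the tested Hist1 genes, against 14.5% of all genes tested. Lower calls were 12.8% of all genes tested, so 2 among the 14 are near the general share. These counts by cluster, 0 higher calls outside Hist1 and 0 lower calls within it, were the same under each of the 13 alternatives. Hist1 transcripts made up 74.7, 75.1 and 74.6% of the summed histone level in the Axin2- libraries and 87.4, 87.3 and 86.7% in the Axin2+ libraries. That share compares genes within a library, so the scaling between libraries does not enter it. With 3 libraries against 3, an exact permutation test of such a share cannot go below p = 0.1, and none was run. The summed level of Hist1 was 537 to 568 CPM in Axin2- and 832 to 1087 in Axin2+, whereas Hist2 overlapped at 99.0 to 115 and 78.1 to 107 CPM.

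Hist1 itself falls into a pair of blocks separated by unrelated genes. The block at chr13:21715763-22043676 holds 23 of the genes, of which 19 were tested and 3 were called higher, namely Hist1h2ak, Hist1h2bn and Hist1h2bm. The block at chr13:23531050-23934851 holds 31, of which 29 were tested and 18 were higher, and Hist1h2al lies apart from both. Summed levels were higher in Axin2+ in both, at ratios of 1.80 and 1.75. They were 61.7, 66.4 and 73.5 CPM against 96.3, 129 and 138 CPM in the first block, and 435, 502 and 438 CPM against 707, 863 and 841 CPM in the second. The higher calls were 15.8% of the tested genes in the first block, near the 14.5% of all genes tested, and 62.1% in the second. The difference between the blocks was not tested.

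**Figure D4:**
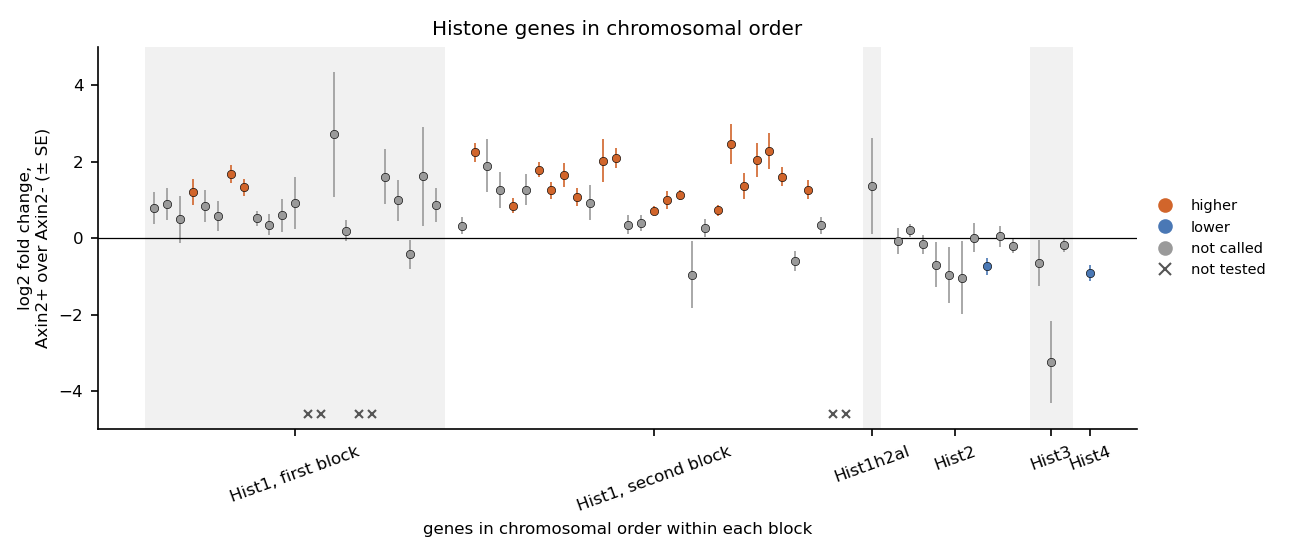
Log2 fold change with its standard error (vertical axis) for the histone genes in chromosomal order within each block (horizontal axis, order only), with crosses for the 6 genes not tested. Points called higher in orange lie in both Hist1 blocks, 3 in the first and 18 in the second, and the 2 blue points called lower lie in Hist2 and Hist4.

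Many H2A and H2B genes sit head to head and share the DNA between their start sites. GENCODE places 13 such pairs of the 69 genes within 500 bases of each other, with starts 173 to 306 bases apart. Both partners were tested in 10 pairs, and the log2 fold changes had the same sign in 9, where 46 of all 49 tested Hist1 genes were above 0. They lay within 0.5 of each other in 5 of the 10. In 3 pairs both partners were called higher: Hist1h2ac with Hist1h2bc (1.01 and 1.13), Hist1h2ae with Hist1h2bg (1.65 and 1.08) and Hist1h2ak with Hist1h2bn (1.68 and 1.33). In Hist1h2bf with Hist1h2ad 1 partner was called, and in 6 pairs neither was. The pair whose signs differed was Hist2h2ac with Hist2h2be, at 0.20 and -0.16.

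For the 3 pairs with both partners called, the DNA upstream of 1 partner is shown, from the RefSeq promoter table (GRCm38.p6), 200 bases up to the start site and 5′ to 3′ toward the named gene. Capitals mark matches on either strand to the octamer ATTTGCAT, known from H2B promoters, to CCAAT and to TATAAA.
Hist1h2bg, plus strand, chr13:23571200-23571399: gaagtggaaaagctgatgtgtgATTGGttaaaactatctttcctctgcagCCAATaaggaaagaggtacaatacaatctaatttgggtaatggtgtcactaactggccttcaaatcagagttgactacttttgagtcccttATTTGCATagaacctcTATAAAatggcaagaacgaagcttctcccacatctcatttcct
Hist1h2ac, minus strand, chr13:23683960-23684159: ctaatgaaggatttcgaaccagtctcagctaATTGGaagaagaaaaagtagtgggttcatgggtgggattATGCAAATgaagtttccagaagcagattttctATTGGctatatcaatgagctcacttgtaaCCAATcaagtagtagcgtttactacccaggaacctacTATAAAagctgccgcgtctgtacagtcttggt
Hist1h2ak, minus strand, chr13:21753913-21754112: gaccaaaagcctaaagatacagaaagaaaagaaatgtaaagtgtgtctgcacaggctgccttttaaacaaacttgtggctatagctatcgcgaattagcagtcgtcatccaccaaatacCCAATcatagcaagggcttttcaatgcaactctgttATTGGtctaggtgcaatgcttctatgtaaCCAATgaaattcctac
The Hist1h2bg stretch overlaps nearly all of the one upstream of Hist1h2ae, which reads the same octamer from the other strand, and the Hist1h2ak stretch has CCAAT but no octamer. Over 250 bases upstream, the octamer was found in 7 of 18 H2A and 7 of 16 H2B promoters in the table, and in no H1, H3 or H4 promoter, against 1.60% of 32851 promoters. CCAAT was in all 34 H2A and H2B promoters, in 6 of 6 H1, 8 of 10 H3 and 3 of 12 H4 promoters, against 33.9% of all, and TATAAA in 29 of 62 against 12.4% of all. Among tested H2A and H2B genes with a promoter in the table, 6 of 12 with the octamer and 4 of 16 without it were called higher. Hist1h2bc, called higher, had no promoter there, and partners of a pair can count the same octamer. These matches describe letters in a window and no measured binding.

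Near-identical copies limit how far single genes can be told apart. The share of a gene's 100-base words also found in a gene at another place ranged from 0 to 100%, and how the authors' counting treated reads with several matches is not given in the sources used here. Of 20 tested genes sharing under 10% of these words, 5 were higher (Hist1h1c, Hist1h1d, Hist1h1e, Hist1h2ac and Hist1h2bm) and 2 were lower (Hist2h4 and Hist4h4). Of 43 tested genes sharing at least 10%, 16 were higher and none was lower. Among the called genes, those sharing over 50% were Hist1h2af (65.3%), Hist1h2ad (63.6%), Hist1h3b (56.6%), Hist1h2ab (52.4%) and Hist1h2bn (52.1%), so their own values are the least certain by this measure. With 50-base words, Hist1h3e (73.4%), Hist1h4b (54.6%) and Hist1h2ak (52.3%) also shared over 50%, and Hist1h2bm shared 43.8%. Hist1h4m, which shares 88.1%, had the largest estimate of the 63 genes, 2.72 (SE 1.63, adjusted p = 0.258), from 0, 3 and 67 counts in Axin2- and 17, 170 and 316 in Axin2+. In addition, 22 of the 69 genes, 7 of them called, overlap an annotated gene on the other strand. Those 7 are Hist1h4b and all 6 H2A genes called higher. Whether counting used strand is not given in the sources used here. Reads of a gene and its overlapping partner may therefore not be separable. The same holds for 7 genes that overlap an annotated gene on their own strand. Of these, 2 were called, Hist1h2ac and Hist1h1e, and the latter overlaps Hist1h2be.

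Levels of different genes can be compared only per length, and the annotations differ in length. The GENCODE length counts exons only, whereas the RefSeq length is not an exon length throughout. For Hist1h2be it is 37455 bases, the whole locus, against 4446 bases of GENCODE exons. With GENCODE exon lengths the Axin2+ level of Hist1h1c was 126 CPM per kilobase, and with the RefSeq length it was 270. Hist1h1c and Hist1h4d were among the top 4 of the 69 in both fractions under either length. For Hist1h2al the same counts gave 210 CPM per kilobase with the GENCODE length of 339 bases and 23.8 with the RefSeq length of 2983 bases. The order of levels, the first ranks included, therefore depends on the length used.

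Genes that make or use these histones were examined as 5 lists, whose counts of calls stand beside the 14.5% higher and 12.8% lower among all genes tested. The 22 factors for histone mRNA synthesis, processing and decay gave 3 higher and 2 lower calls (median log2 fold change 0.11, against -0.0077 for all genes tested). Slbp and Npat, named here for their roles in holding the stem-loop and in activating histone transcription, were not called, with log2 fold changes of -0.13 (SE 0.14) and -0.18 (SE 0.14). Ddx19b, an RNA helicase of mRNA export, was at 13.1, 15.2 and 11.7 CPM in Axin2- and 27.9, 32.2 and 24.1 CPM in Axin2+ (log2 fold change 1.07, adjusted p = 0.00536). Cpsf2, a subunit of the complex that cuts histone pre-mRNA, rose by a log2 fold change of 0.61 (adjusted p = 0.0101). Zfp473, a zinc finger protein that associates with the U7 particle, fell from 2.47, 3.72 and 3.05 CPM to 0.811, 0.793 and 0.819 CPM (log2 fold change -1.93, adjusted p = 0.00935). The other calls, named after their values were seen, were Mif4gd, an SLBP partner, at 0.90 and Srrt at -0.36, the latter with an adjusted p of 0.0714 with mouse as a block.

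Replacement histones, which are made outside S phase as well, gave 2 higher calls and no lower call among 11 (median 0.018). H2afj was at 13.5, 13.1 and 17.3 CPM against 35.1, 31.3 and 29.7 CPM (log2 fold change 1.13, adjusted p = 0.0033). H3f3a, which encodes a replacement H3, was at 62.6, 79.0 and 58.5 CPM against 104, 103 and 98.8 CPM (log2 fold change 0.61, adjusted p = 0.0165). Its call was lost without the Axin2- library of mouse 1 or the Axin2+ library of mouse 2. H3f3b, also on the list, was not called. The 19 histone chaperones gave 2 higher and 2 lower calls (median 0.083). Tonsl, which binds new histones at forks, went from 9.39, 6.61 and 9.10 CPM to 33.4, 39.5 and 34.0 CPM (log2 fold change 2.09, adjusted p = 0.000558). Chaf1a, the large subunit of the replication-coupled chaperone CAF-1, had a log2 fold change of 0.59, and Cabin1, of the HIRA complex, one of -0.52, both losing the call without the Axin2- library of mouse 1 or the Axin2+ library of mouse 2, and Chaf1a also without the Axin2+ library of mouse 1 or 3. Nasp, a chaperone of H3 and H4 named after its value was seen, had one of -0.57.

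Some genes of DNA replication were also called. Of 30 S phase genes 9 were higher and none was lower (median 0.55, with 25 above 0 and 5 below). Of the 30, 17 lay above without overlap, where 23.9% of all genes tested did. Without the Axin2+ library of mouse 2, 5 of the 30 were called higher. Mcm2, a subunit of the replicative helicase, was at 22.7, 24.9 and 22.2 CPM in Axin2- and 51.9, 52.0 and 47.8 CPM in Axin2+ (log2 fold change 1.12, adjusted p = 0.00104), and Mcm3 and Mcm6 both had log2 fold changes of 0.93. Of 10 markers of cycling cells 3 were higher and none was lower (median 1.45). All 10 lay above without overlap, beside the same 23.9% of all genes tested. With mouse as a block 5 of the 10 were higher, and when leaving out 1 library 1 to 4 were. Top2a, which untangles replicated DNA, stood at 18.1, 4.77 and 15.5 CPM against 64.5, 54.2 and 55.8 CPM (log2 fold change 2.18, adjusted p = 0.0127). Aurkb and Tpx2, which act in mitosis, had log2 fold changes of 2.14 and 0.98, the latter with an adjusted p of 0.0512 with mouse as a block. Both calls were lost without the Axin2- library of mouse 3 or the Axin2+ library of mouse 1 or 2. In sum the cycling markers were at 102, 23.4 and 87.7 CPM in Axin2- and 258, 215 and 239 CPM in Axin2+. Their part in the histone differences was not tested.

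**Figure D5:**
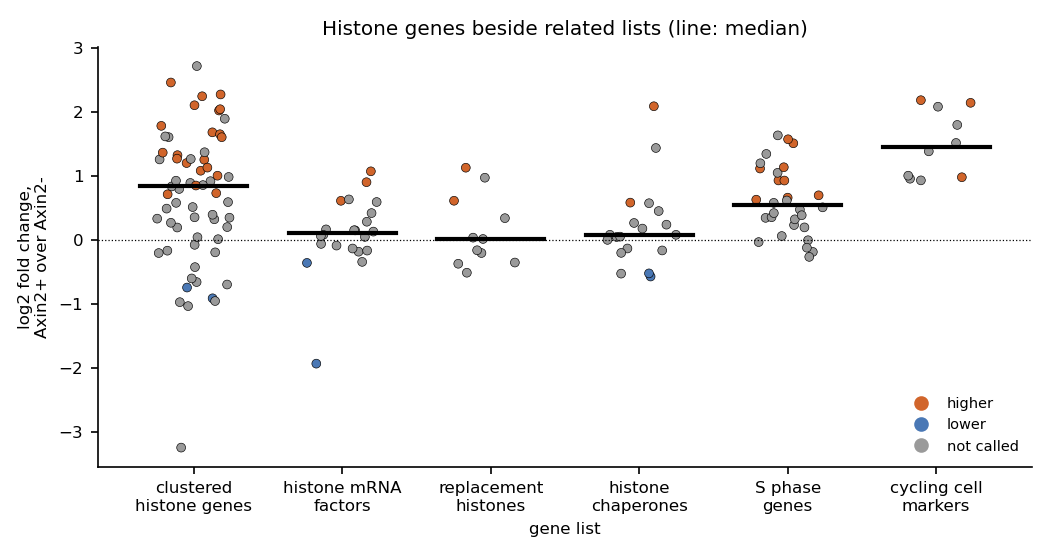
Log2 fold change of Axin2+ over Axin2- (vertical axis) for the 63 tested histone genes and the tested genes of 5 related lists, 1 point per gene, coloured orange for higher, blue for lower and grey for not called, with a line at each median. The medians of the histone genes (0.84), S phase genes (0.55) and cycling cell markers (1.45) lie above 0, and those of the other 3 lists lie near 0.

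The authors' deposited table of differential expression listed 61 of the 69 genes. At its false discovery rate under 0.05, 21 had a log2 fold change above 0 and 2 below 0, and the counts it carried equalled those of the count table for all 61.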

How the data were processed

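Total RNA of 6 sorted fractions (3 mice, Axin2- and Axin2+) was sequenced after ribosomal depletion, per the labels' protocols. Per the submitters' processing notes, STAR 2.5.3a and featureCounts 1.5.3 were used with mm10, beside bcl2fastq 2.20.0.422, StringTie 1.3.3 and edgeR 3.22.5. Not given in the sources used here are the annotation, the strand setting and the treatment of multiply matching reads. The deposited counts are raw counts per gene, per the file headers. The authors' deposited table adds log2 fold changes, a test score and p-values, and a deposited summary gives percent of pairs assigned.

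Counts were fitted with edgeR 4.0.16 in R 4.3.3 (filterByExpr, 16896 genes kept, TMM, robust quasi-likelihood, fraction as the only term). P-values were Benjamini-Hochberg adjusted over all tested genes with a threshold of 0.05. A standard error is the absolute log2 fold change divided by the square root of F. CPM use TMM-scaled library sizes. The procedure was also run on simulated counts with known fold changes in a small part of the genes, and no result here rests on that run. The named genes are, per class, up to 3 called genes with the smallest p and the 2 with the highest mean CPM, the germ-line genes Hist1h1t, Hist1h2aa and Hist1h2ba, the other called genes by fold change, and up to 3 called genes per related list. The genes and lists were chosen with earlier results of these data known.

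As the labels number libraries by mouse but also mention pooling of cells, same-numbered libraries of both fractions were assumed to share a mouse. Their deviations from the group means correlated across genes at 0.32, 0.034 and -0.12 for mice 1, 2 and 3. Alternatives were RLE, upper quartile or no scaling, no count filter, a filter of 0.5 CPM in 3 libraries, DESeq2 1.42.0, mouse as a block, and leaving out each library. Stem-loops were sought in GENCODE M21 transcripts and promoters taken from the RefSeq table. All 69 genes had a RefSeq match.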

Additional observations from a re-analysis of the deposited data

How the results depend on the processing

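The number of histone genes called higher stayed between 14 and 24 over the 13 alternatives, and 13 of the 21 calls held in all of them. The summed histone level gave a log2 ratio of 0.63, and of 0.57 to 0.80 over the alternatives. One of these, without the 2 pseudogenes, was chosen after seeing the data and gave 0.59. Histone genes called lower numbered 1 with library size only, 1 with no count filter, 3 with DESeq2 and 0 to 2 when leaving out 1 library. Scaling by library size only moved the median log2 fold change of all genes by 0.17, and 67.4% of all calls were then higher, against 53.0%.

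With library size only, the histone mRNA factors gave 5 higher and 1 lower, the chaperones 0 lower and the cycling markers 5 higher. The factors also gave 1 lower with no filter and 1 with mouse as a replicate block. DESeq2 gave 1 lower replacement histone and 6 higher cycling markers, and the block 5 higher cycling markers. The replicate block lost the calls of Hist1h2ad and Hist1h2bm and no other call among the histone genes, and, among the related genes named, those of Tpx2 and Srrt. Leaving out 1 library gave 1 to 4 higher cycling markers, 5 to 8 higher S phase genes, 1 to 3 higher and 0 to 2 lower chaperones, 1 to 2 higher replacement histones and 1 lower histone mRNA factor each time. At 49714402 to 59597315 assigned pairs each, counts of at most 3 left 6 genes untested.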
